A study of Homo sapiens with 18 samples.

Results

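The genes examined here encode the aminoacyl-tRNA synthetases, 35 genes that were taken by name from a table of 41285 genes counted in K562 cells. All 35 were found under their current symbols. Of these, 19 encode cytosolic enzymes, 7 of them in the multisynthetase complex (EPRS1, IARS1, LARS1, MARS1, QARS1, RARS1 and KARS1) and 12 outside it. The other 16, whose names end in 2, encode mitochondrial enzymes. All 35 passed the filter on low counts, and VARS2 had the lowest count of any of them in any library (72 reads).

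RNA from 3 isogenic lines of K562, a human chronic myeloid leukaemia line with erythroid character, was sequenced as polyA-selected, stranded libraries, 2 for each of 9 groups (18 in all). Parental cells were untreated or given interferon alpha (IFN, 1000 U/mL, 24 hours). VPR-D9 cells, in which doxycycline induces dCas9-VPR, a transcriptional activator, were untreated or belonged to the groups D2000 and D6, both labelled as doxycycline alone. KRAB-D9 cells, in which doxycycline induces dCas9-KRAB, a transcriptional repressor, were untreated or given IFN, doxycycline or both. The treatment protocol gives doxycycline at 2 µg/mL without naming groups, and the dose in D6 is not clear from the labels. KRAB-D9 cells given both agents had it for 24 hours before IFN and throughout. The labels do not explain the codes D2000 and D6, how long doxycycline was given without IFN, or whether each D9 line is 1 clone. No parental cells with doxycycline and no cells with a dCas9 fusion aimed elsewhere were analysed here, so an effect of doxycycline itself and an effect of SAMD9 cannot be told apart.

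Each synthetase joins an amino acid to its tRNA and so supplies the ribosome with charged tRNA. Cytosolic and mitochondrial translation use separate enzymes for most amino acids; GARS1 and KARS1 serve both compartments, and phenylalanyl-tRNA synthetase of the cytosol is built from an alpha subunit (FARSA) and a beta subunit (FARSB). Uncharged tRNA activates the kinase GCN2, which raises translation of the transcription factor ATF4, and many cytosolic synthetase genes are known ATF4 targets. WARS1, the tryptophanyl enzyme, is also a classical interferon-induced gene, known best for its response to interferon gamma. SAMD9, the gene that the fusions were aimed at, is an interferon-induced antiviral protein reported to cut phenylalanine tRNA.

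The libraries held 32694200 to 63037568 counts. SAMD9 rose with IFN in parental and KRAB-D9 cells and with doxycycline in VPR-D9 (D2000 and D6), and fell with doxycycline in KRAB-D9. In parental cells it lay at 9.31 and 9.05 CPM (counts relative to the TMM-scaled library size) untreated and at 168 and 154 CPM with IFN. In VPR-D9 cells it lay at 59.9 and 61.4 CPM untreated, 974 and 948 CPM in D2000, and 936 and 960.5 CPM in D6. In KRAB-D9 cells it lay at 0.750 and 0.364 CPM untreated, 0 and 0.117 CPM with doxycycline, 55.0 and 53.5 CPM with IFN, and 0.849 and 0.745 CPM with both. The untreated lines were not alike: SAMD9 differed from parental cells by 2.72 ± 0.07 in VPR-D9 and by -3.99 ± 0.16 in KRAB-D9 on the log2 scale (edgeR adjusted p = 4.78e-23 and 2.1e-18), before doxycycline was added. Erythroid markers were present in every library, with a summed level of 690 to 4107 CPM. The erythroid list of 10 genes includes TFRC (219 to 1718 CPM) and BCR (160 to 192 CPM), so its sums need not follow erythroid state alone. T cell and myeloid markers summed to at most 2.06 CPM, with MPO at 0 in 11 and ELANE at 0 in 16 of the 18 libraries. Fibroblast or epithelial markers summed to 60.7 to 134 CPM, with EPCAM at 30.4 to 98.8 CPM. The D2000 libraries stood apart, with scaling factors of 1.17 and 1.19 against 0.95 to 1.04 elsewhere. As a mean over genes, the variance between the KRAB-D9 libraries with IFN was 16.2 times counting noise, where other groups had 4.47 to 6.36 times. By the median over genes it was 7.19 times, against 4.07 to 5.33 times in the other groups. Whether libraries of the same group were grown as separate cultures is not stated in the labels, and a p-value therefore reflects no more than the scatter among these libraries, which may be technical.

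Cytosolic synthetase RNAs were more abundant per length than mitochondrial ones. Levels between genes are compared as RPKM (CPM divided by the deposited gene length in kilobases). In untreated parental cells the median was 36.7 RPKM over the 7 genes of the complex, 35.2 RPKM over the 12 other cytosolic genes and 10.1 RPKM over the 16 mitochondrial genes. EPRS1, which charges both glutamate and proline, was the highest at 117 ± 0.97 RPKM (SD, n = 2), followed by FARSA at 104 ± 3.3 RPKM and TARS1, the threonyl enzyme, at 101 ± 0.21 RPKM. IARS2, at 66.4 ± 0.69 RPKM, was the one mitochondrial gene in the range of the abundant cytosolic genes, and VARS2, at 0.427 ± 0.0070 RPKM, was the lowest gene of all. The order depends on the gene length: the deposited length was 0.744 (TARS1) to 4.18 (GARS1) times the merged exon length of GENCODE 29, an alternative chosen after the data were seen. With exon lengths the medians were 67.0, 61.8 and 11.4 RPKM, EPRS1 (115) and FARSA (104) still led, TARS1 stood at 75.6 RPKM, below VARS1 (89.1) and KARS1 (82.9), and GARS1 and IARS1 went from 15.2 and 23.6 to 63.7 and 71.6 RPKM.

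**Figure D1:**
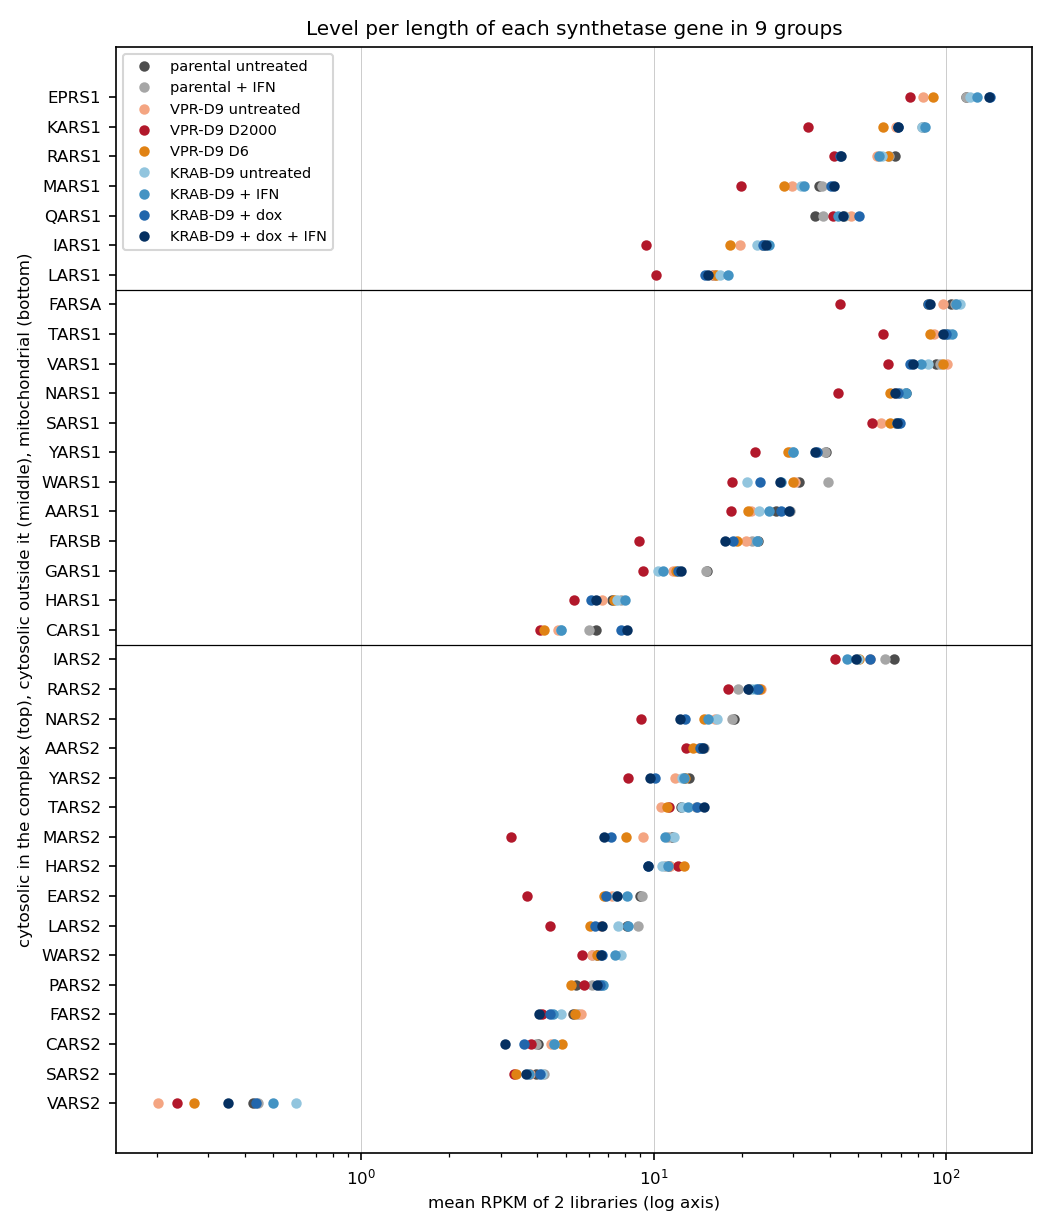
Each row is a synthetase gene and each point its mean RPKM over the 2 libraries of a group, on a log axis; horizontal lines separate cytosolic genes in the complex, cytosolic genes outside it and mitochondrial genes. RPKM uses TMM scaling and the deposited lengths, and the order of genes differs with exon lengths. The D2000 point is the leftmost for 28 of the 35 genes, a ranking not repeated with library totals.

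The genes moved within narrow bounds across the 9 groups. The ratio of the highest to the lowest group mean had a median of 1.66 and ran from 1.15 for AARS2, the mitochondrial alanyl enzyme, to 3.59 for MARS2, the mitochondrial methionyl enzyme. Against this, the 2 libraries of a group differed for a typical member by a median of 0.03 to 0.06 on the log2 scale. The widest gap was 0.67, for VARS2 in D2000. D2000 was the lowest group for 28 of the 35 genes, among them all 12 cytosolic genes outside the complex and 6 of the 7 within it. The ranking uses TMM scaling, in which the D2000 libraries had the highest factors (1.17 and 1.19). It was not repeated with library totals, and no share over all genes is given. Some genes share exonic sequence with neighbours, and since the strand setting of the counting is not given in the sources used here, their values are uncertain: SARS2 shares 46.2% of its exonic bases with a gene on its own strand, VARS2 22.0% with GTF2H4 on its own strand, MARS1 12.4% with ARHGAP9 and DDIT3 on the opposite strand, HARS2 11.7% on the opposite strand, and WARS1 10.6% on the opposite strand.

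WARS1 was the synthetase gene that responded to IFN in every setting tested, and the response was small. In parental cells it lay at 202 and 199 CPM untreated and at 251 and 252 CPM with IFN. In KRAB-D9 cells it lay at 135 and 130.0 CPM untreated and at 172 and 174 CPM with IFN. The groups did not overlap in either line, which alone says little with 2 libraries a group. In parental cells the log2 fold change was 0.33 ± 0.04 (SE, 2 libraries a group). The edgeR quasi-likelihood F test, with Benjamini-Hochberg adjustment, gave an adjusted p of 8.86e-08. In KRAB-D9 cells the log2 fold change was 0.39 ± 0.04 (edgeR, adjusted p = 2.21e-09). The IFN effect of WARS1 did not differ detectably between the lines (difference KRAB-D9 minus parental 0.06 ± 0.06, edgeR adjusted p = 0.799). WARS1 (ENSG00000140105.18) spans chromosome 14, 100333790 to 100376805, in the GRCh38 coordinates of the deposited table.

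The RefSeq promoter table (GRCh38.p14) holds windows of 250 bases before to 50 after the start for 30 of the 35 genes; LARS1, VARS1, YARS1, AARS2 and VARS2 have none there. Each window was searched on both strands for GAAANNGAAA, the core of the interferon-stimulated response element. It was found in 2 of the 30 genes, or 6.67%, against 4.38% of the 27305 genes in the table. WARS1 has 2 RefSeq starts 980 bases apart, and the match lies before the downstream one. It is printed with that of EARS2, the mitochondrial glutamyl gene, on the strand of the gene, with the match in capitals; EARS2 lies at chr16:23557554-23557583 and WARS1 at chr14:100375383-100375412, both on the minus strand.
WARS1: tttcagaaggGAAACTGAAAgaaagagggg
EARS2: cctgccacgcTTTCGCTTTCccaagctgaa
EARS2 was not called in any of the 3 IFN comparisons.

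Other synthetase genes hardly moved with IFN. In parental cells 2 of the 35 genes rose, WARS1 and AARS1, and none fell; over all 22143 genes tested 3.03% rose and 1.31% fell. AARS1, the cytosolic alanyl enzyme, lay at 271 and 268 CPM untreated and at 294 and 305 CPM with IFN (0.15 ± 0.04, edgeR adjusted p = 0.0114). In KRAB-D9 cells 2 of 35 rose, WARS1 and IARS1 (0.13 ± 0.04, edgeR adjusted p = 0.018), and none fell, against 3.98% and 2.42% of all genes. With doxycycline present, IFN raised WARS1 from 149 and 144 CPM to 174 and 169 CPM (0.23 ± 0.04, edgeR adjusted p = 0.000142), while QARS1, the glutaminyl enzyme, fell by 0.18 and IARS2 by 0.16; 3.12% of all genes rose and 1.77% fell. The median log2 fold change over the 35 genes was -0.01, 0.01 and -0.01 in the 3 comparisons. WARS1 passed the test in every fit that left out 1 library, but AARS1 was lost without replicate 1 or 2 of the untreated parental cells or replicate 2 of those with IFN (highest adjusted p 0.23), IARS1 without either untreated KRAB-D9 library (highest 0.129), QARS1 without replicate 1 of KRAB-D9 with doxycycline or with both agents (highest 0.0738), and IARS2 without either of these or replicate 2 with both agents (highest 0.221). Leaving out replicate 2 of KRAB-D9 with IFN raised the number of calls in that line, among the members and over all genes. DESeq2 called 4 members there (3 higher and 1 lower), with 975 higher and 654 lower of 14845 genes tested. EdgeR called 1 member with no filter (847 and 561 of 41285 genes) and 1 with only the compared groups (351 and 114 of 18121). Of 9 interferon reference genes tested, 8 rose with IFN in each of the 3 settings.

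No synthetase gene was called in the test of the difference in IFN effect between KRAB-D9 and parental cells, or in the test of the interaction of doxycycline and IFN. DESeq2 also called 0 in both, and over all genes edgeR called 0.303% and 0.158% in either direction. In each test 4 of the 35 genes had an unadjusted p under 0.05 by edgeR. No share over all genes is given at that unadjusted threshold. Leaving out replicate 2 of KRAB-D9 with IFN led to calls of VARS1 and FARSA, both lower, in the difference between the lines. Calls over all genes rose in that fit too. For WARS1 the interaction was -0.16 ± 0.06 (edgeR unadjusted p = 0.00765, adjusted p = 0.353).

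**Figure D2:**
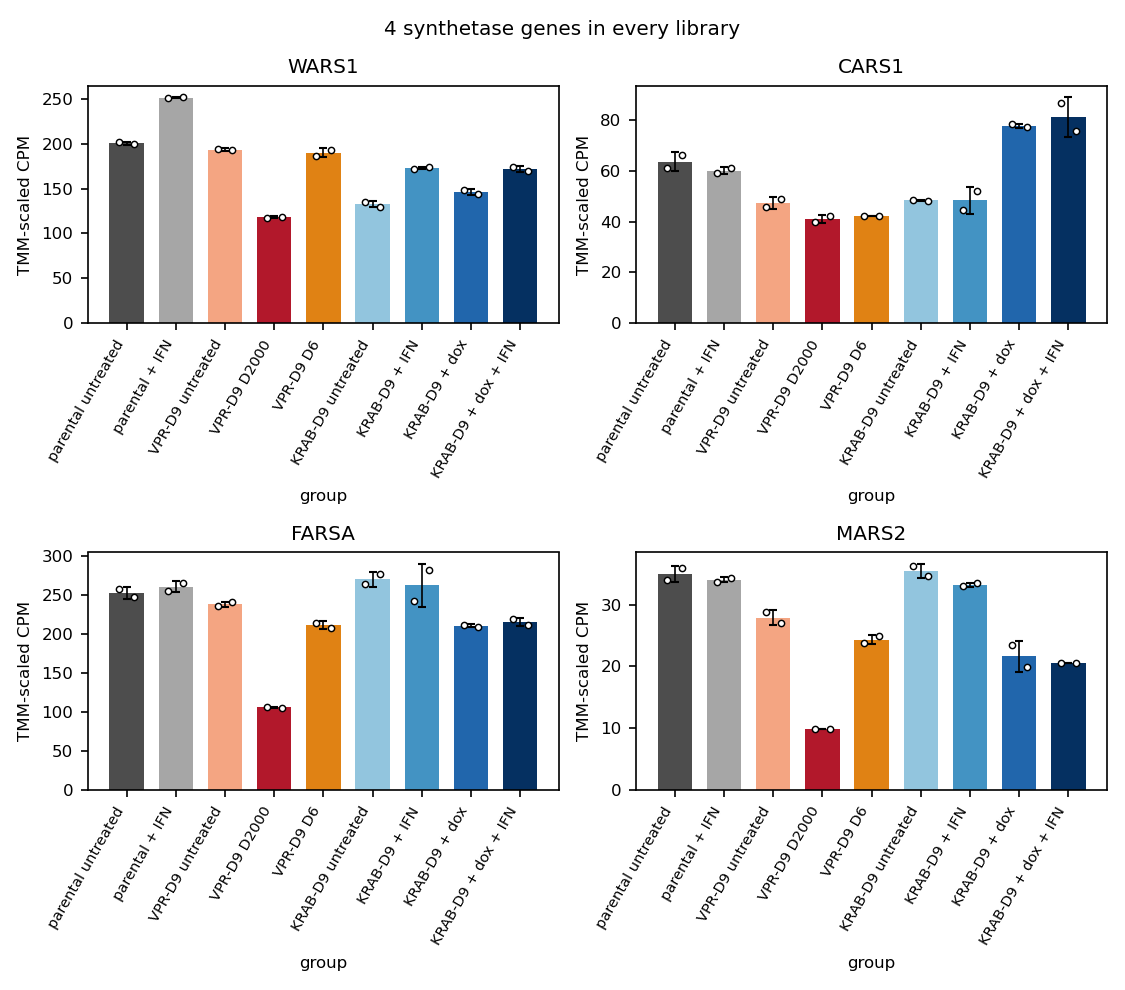
Bars are group means of TMM-scaled CPM with SD (n = 2) and open points are the libraries, for WARS1, CARS1, FARSA and MARS2. WARS1 is highest in parental cells with IFN (251 and 252 CPM), CARS1 in the KRAB-D9 groups with doxycycline, and FARSA and MARS2 are lowest in D2000.

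Doxycycline in KRAB-D9 cells split the family: 10 of the 35 genes rose and 12 fell, with a median log2 fold change of -0.08. Over all genes 12% rose and 12.7% fell, with a median of 0.02. The cytosolic genes went both ways (8 rose and 7 fell of 19), and of the 16 mitochondrial genes 2 rose and 5 fell. With library totals in place of TMM scaling, 11 rose and 12 fell.

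Among the genes that rose, CARS1, the cytosolic cysteinyl enzyme (chromosome 11, 3000922 to 3057613), led. It lay at 48.6 and 48.3 CPM without and at 78.4 and 77.3 CPM with doxycycline, a log2 fold change of 0.69 ± 0.07 (edgeR adjusted p = 1.44e-10). MARS1, the methionyl enzyme of the complex, went from 224 and 224 CPM to 287 and 284 CPM (0.35 ± 0.04). YARS1, the tyrosyl enzyme, went from 276 and 269.6 CPM to 335 and 327 CPM (0.28 ± 0.04). In these 3 genes, named as the largest rises, the groups did not overlap. AARS1 (0.26), EPRS1 (0.23), GARS1, the glycyl enzyme (0.23), QARS1 (0.17) and TARS2, the mitochondrial threonyl enzyme (0.17), rose less, as did WARS1 (0.15 ± 0.04, edgeR adjusted p = 0.00512) and IARS2 (0.13).

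Among the genes that fell, MARS2 led, from 36.3 and 34.6 CPM to 23.4 and 19.9 CPM (-0.71 ± 0.08, edgeR adjusted p = 3.06e-09). RARS1, the arginyl enzyme of the complex, went from 205 and 209 CPM to 148 and 149 CPM (-0.48 ± 0.04, edgeR adjusted p = 5.96e-12). Both subunits of the phenylalanyl enzyme fell, FARSA from 264 and 278 CPM to 212 and 209.6 CPM (-0.36 ± 0.05) and FARSB by 0.28. NARS2, the mitochondrial asparaginyl enzyme, fell by 0.36, CARS2 by 0.34, YARS2 by 0.31 and HARS1, the cytosolic histidyl enzyme, by 0.29. The other 4 that fell, KARS1, LARS2, VARS1 and LARS1, did so by 0.18 to 0.27. Of the 22 calls 18 held in every fit that left out 1 library; YARS2 was lost without replicate 1 of the untreated cells (adjusted p 0.23), WARS1 without replicate 2 of these or replicate 1 with doxycycline (highest 0.118), IARS2 without either untreated library or replicate 1 with doxycycline (highest 0.168), and TARS2 without any 1 of the 4 libraries (highest 0.236).

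For 13 amino acids 1 cytosolic and 1 mitochondrial gene can be set side by side. With doxycycline in KRAB-D9 cells, 3 such pairs were called in opposite directions, each with the cytosolic gene higher and the mitochondrial gene lower: CARS1 and CARS2, MARS1 and MARS2, YARS1 and YARS2. The leucyl pair, LARS1 and LARS2, fell together, no pair rose together, and in 8 pairs 1 of the genes was called. In the presence of IFN the same 3 pairs were called in opposite directions, with CARS1 at 0.74 ± 0.07 and CARS2 at -0.55 ± 0.07.

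The amino acid response element binds ATF4 and its partners, and its core, TGATGNAA, was searched in the same windows on both strands. It was found in 8 of 30 synthetase genes, or 26.7%, against 4.46% of all genes in the table. The stretches are printed on the strand of the gene with the match in capitals; TTNCATCA is the core read on the other strand. They show that in CARS1, MARS1, AARS1, IARS1 and TARS1 the matched letters are identical, and that NARS1 holds them in the reverse sense.
CARS1: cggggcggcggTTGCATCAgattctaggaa
MARS1: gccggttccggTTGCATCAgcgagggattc
AARS1: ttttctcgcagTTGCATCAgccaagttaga
IARS1: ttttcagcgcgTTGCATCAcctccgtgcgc
TARS1: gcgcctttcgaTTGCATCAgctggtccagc
GARS1: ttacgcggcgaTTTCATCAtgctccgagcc
NARS1: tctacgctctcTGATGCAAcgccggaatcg
YARS2: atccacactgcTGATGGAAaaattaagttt
In GRCh38.p14 they lie at chr11:3057407-3057436 (CARS1), chr12:57488053-57488082 (MARS1), chr16:70289675-70289704 (AARS1), chr9:92293692-92293721 (IARS1), chr5:33440956-33440985 (TARS1), chr7:30594834-30594863 (GARS1), chr18:57621804-57621833 (NARS1) and chr12:32756076-32756105 (YARS2). MARS1, TARS1 and GARS1 are on the plus strand and the others on the minus strand. Of the genes with a window that rose with doxycycline in KRAB-D9 cells, 4 of 9 held a match (CARS1, MARS1, AARS1 and GARS1), of those that fell 1 of 10 (YARS2), and of those not called 3 of 11. In D2000 of VPR-D9, 8 of the 25 lower genes held a match, and 0 of the 5 not called. In untreated VPR-D9 against parental cells, 7 of 18 lower, 0 of 3 higher and 1 of 9 uncalled genes held it. The part of these matches in any change was not tested. The E-box CACGTG, a motif of MYC and related factors, was found in 4 of the 30 genes (CARS2, EARS2, IARS1 and MARS2), or 13.3%, against 8.77% of all genes.

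A list of 38 ATF4 and amino acid response genes, which holds no synthetase, had 20 genes that rose, 5 that fell and 13 that were not called in the same comparison, with a median of 0.20, against 12% and 12.7% of all genes. ATF4 itself went from 229 and 231 CPM to 331 and 313 CPM (0.49 ± 0.04, edgeR adjusted p = 2.12e-12). CHAC1, which degrades glutathione, rose by 2.09 from under 1 CPM, PHGDH, the entry enzyme of serine synthesis, by 1.64, DDIT4 by 1.38 and ALDH1L2 by 1.34; SLC7A5, a leucine transporter, fell by 0.29, EIF4EBP1 by 0.27, GCN1 by 0.25 and ALDH18A1 by 0.23. Genes of the translation machinery went the other way. Of 24 cytosolic translation factors 0 rose and 16 fell, of 23 mitochondrial translation genes 1 rose and 12 fell, and of 15 genes that act with synthetases 1 rose and 7 fell, AIMP2, a scaffold of the multisynthetase complex, by 0.77. With library totals the translation factors gave 2 higher and 15 lower. Erythroid markers summed to 3664 to 3764 CPM with and 3196 to 3231 CPM without doxycycline, and fibroblast or epithelial markers to 83.9 to 84.0 against 114 to 115 CPM; their part in these results was not tested.

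With IFN present, doxycycline in KRAB-D9 cells raised 7 and lowered 13 of the 35 genes (median -0.10), against 10.4% and 11.9% of all genes. CARS1 went from 44.5 and 52.2 CPM to 86.8 and 75.7 CPM, and MARS2 from 33.0 and 33.5 CPM to 20.5 and 20.5 CPM. MARS1 (0.34), YARS1 (0.26), AARS1 (0.23), GARS1 (0.21), TARS2 (0.18) and EPRS1 (0.14) also rose, while CARS2, RARS1, YARS2, FARSB, HARS1, NARS2 and KARS1 fell by 0.30 to 0.55. WARS1, already raised by IFN, was not called (-0.01 ± 0.04, edgeR adjusted p = 0.882). Library totals gave 9 higher and 11 lower, with the all-gene split at 3109 higher and 1955 lower against 2302 and 2627. EPRS1 was lost without replicate 1 of the cells with both agents (adjusted p 0.17), TARS2 without any 1 of the 4 libraries (highest 0.123) NARS2 without replicate 2 of the cells with IFN (0.0964), HARS2 without replicate 1 of these or replicate 2 with both agents (highest 0.384), and NARS1 without either of the former or replicate 2 of the latter (highest 0.315).

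Against untreated KRAB-D9 cells, both agents together raised 9 genes and lowered 16 (median -0.11), with 12.5% of all genes higher and 12.5% lower. CARS1 (0.75), MARS1 (0.38), WARS1 (0.37), AARS1 (0.35), GARS1 (0.26), YARS1 (0.26), TARS2 (0.25) and EPRS1 (0.22) led the genes that rose. MARS2 (-0.79), VARS2 (-0.77), CARS2 (-0.55), RARS1 (-0.47), NARS2 (-0.42), FARSB and YARS2 (-0.37 each) and FARSA (-0.33) led those that fell. These libraries are shared with the comparisons of each agent. The fall of VARS2, whose levels were 4.05 and 3.71 against 2.53 and 2.01 CPM, was lost without replicate 1 of the untreated cells or replicate 2 of the treated (highest adjusted p 0.202), and that of YARS2 without replicate 1 of the untreated cells (0.0784). Calls of FARS2, IARS1, LARS1, LARS2, NARS1 and WARS2, the smaller changes, were also lost in at least 1 such fit, LARS2 without replicate 2 of the untreated cells (0.237), and 17 of the 25 held in all. Library totals gave 9 higher and 12 lower, and 3388 higher and 2204 lower over all genes against 2762 and 2773.

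**Figure D3:**
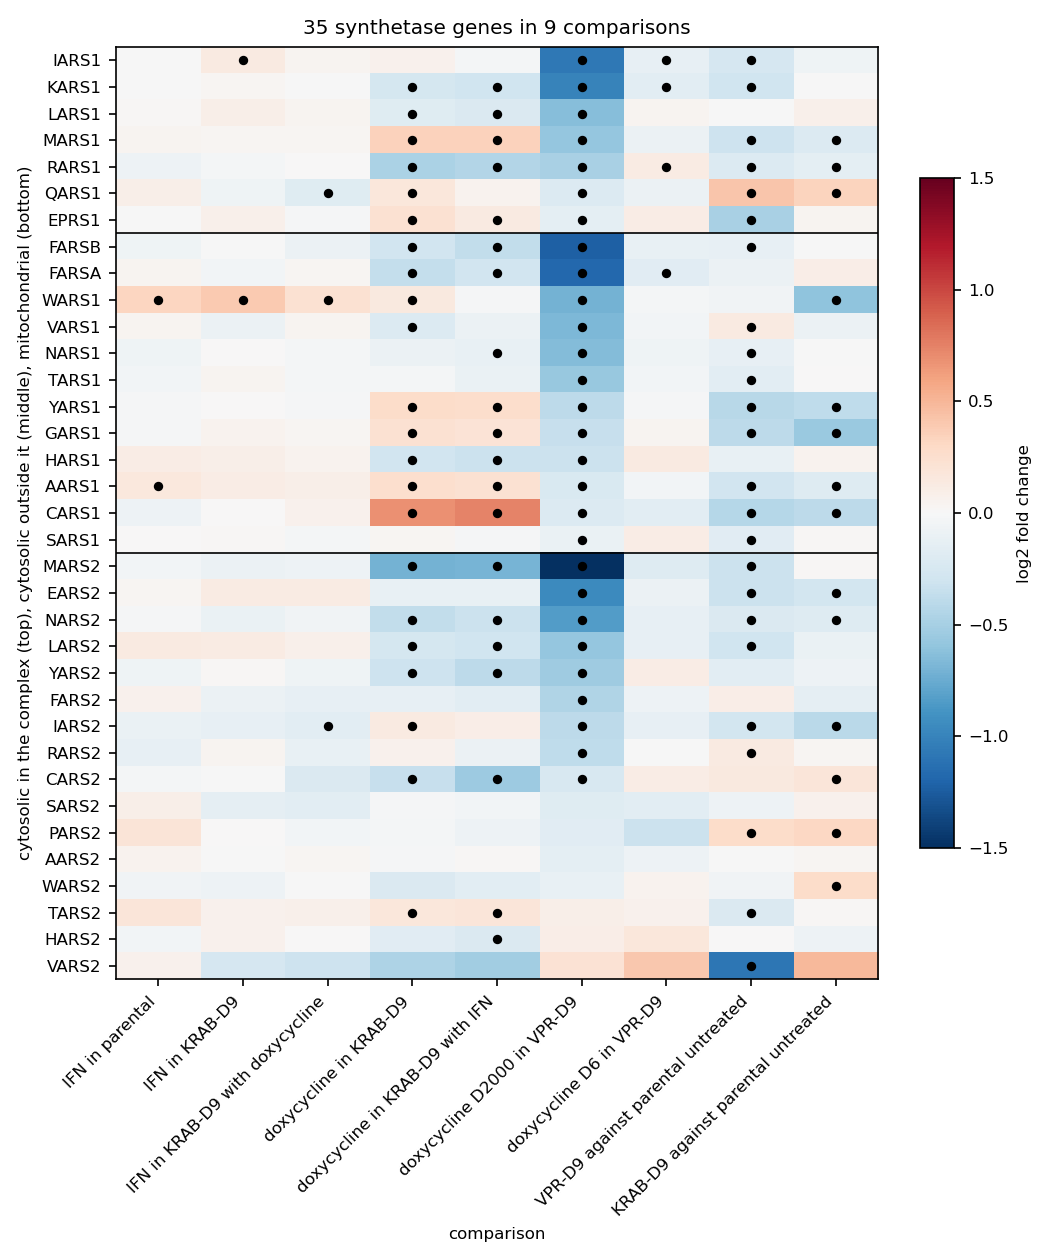
Rows are the 35 genes (cytosolic in the complex, cytosolic outside it, mitochondrial, each in order of the D2000 change) and columns 9 comparisons; colour is the log2 fold change and a black dot marks an edgeR adjusted p under 0.05. The D2000 column is mostly blue with 28 dots (21 lower and 4 higher with library totals), the IFN columns carry 2, 2 and 3 dots, and the columns of doxycycline in KRAB-D9 hold both colours.

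D2000 was the setting in which the family moved most and in 1 direction. Of the 35 genes 28 fell and 0 rose by edgeR. The median log2 fold change was -0.40 against 0.06 for all genes, of which 21.9% rose and 24.2% fell. All 19 cytosolic genes and 9 of the 16 mitochondrial genes were lower, and DESeq2 gave the same counts, 28 and 0. With library totals in place of TMM the count was 21 lower and 4 higher, EPRS1, SARS1, TARS2 and HARS2 being the 4, while the median of all genes shifted by 0.23 and the all-gene split went from 4853 higher and 5348 lower to 7195 and 3286.

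The largest fall was that of MARS2, from 28.8 and 27.0 CPM to 9.86 and 9.90 CPM, a log2 fold change of -1.50 ± 0.08 (edgeR adjusted p = 1.32e-18). MARS2 lies on chromosome 2, 197705369 to 197708395. Both subunits of phenylalanyl-tRNA synthetase came next. FARSB (chromosome 2, 222566899 to 222656092) went from 138 and 143 CPM to 58.2 and 62.1 CPM (-1.22 ± 0.05, edgeR adjusted p = 1.79e-23). FARSA (chromosome 19, 12922479 to 12934037) went from 236 and 241 CPM to 107 and 105 CPM (-1.17 ± 0.05, edgeR adjusted p = 1.64e-22). The intervals of 1 standard error around the falls of both subunits overlapped. FARS2, the mitochondrial phenylalanyl enzyme, fell by 0.45 ± 0.08.

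Within the complex IARS1, the isoleucyl enzyme, and KARS1, the lysyl enzyme, fell most. IARS1 went from 443 and 444 CPM to 216 and 206 CPM (-1.07 ± 0.04) and KARS1 from 271 and 277 CPM to 139.6 and 133 CPM (-1.01 ± 0.04). No other member passed a fold of 2. EARS2 (-0.96), NARS2 (-0.84) and WARS1 followed, WARS1 from 194 and 192.5 CPM to 117 and 119 CPM (-0.71 ± 0.04, edgeR adjusted p = 2.82e-18). At the other end of the cytosolic genes stood SARS1, the seryl enzyme, at -0.09 ± 0.04 (edgeR adjusted p = 0.0387), and EPRS1 at -0.15 ± 0.04. With library totals the signs of EPRS1 (0.08), SARS1 (0.14), CARS1 (0.02), QARS1 (0.02) and AARS1 (0.00375) were positive, those of EPRS1 and SARS1 past the threshold (edgeR adjusted p = 0.0404 and 0.00131). Leaving out 1 library kept 24 of the 28 calls; CARS1 was lost without replicate 2 of untreated VPR-D9 or replicate 1 of D2000 (highest adjusted p 0.124), CARS2 and EPRS1 without replicate 2 of D2000 (0.133 and 0.0851), and SARS1 without this or either untreated library (highest 0.511).

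HARS1 and HARS2 are neighbours on chromosome 5 that are transcribed away from each other, with starts 85 bases apart in RefSeq. In D2000 they differed: HARS1 fell by 0.32 ± 0.05, from 94.3 and 94.5 CPM to 73.7 and 77.3 CPM, while HARS2 lay at 43.7 and 40.7 CPM untreated and 46.2 and 44.2 CPM in D2000 (0.10 ± 0.07, edgeR adjusted p = 0.251). TARS2 and VARS2 were the other members with a positive estimate, neither called. For the amino acids with a gene in each compartment, 7 of the 13 pairs fell together and in the other 6 only the cytosolic gene was called.

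Neighbouring steps of translation were lower in D2000 too. Of 24 cytosolic translation factors all 24 fell (median -0.67; 23 lower and 1 higher with library totals), of 23 mitochondrial translation genes 21 fell (median -0.59), and of 15 genes that act with synthetases 11 fell and 1 rose. ATF4 went from 169 and 171 CPM to 105 and 105 CPM (-0.70 ± 0.04, edgeR adjusted p = 7.84e-18). In the ATF4 and amino acid response list 9 of 38 genes were higher, led by NUPR1 (2.21), CHAC1 (1.81), CTH (1.11) and PSPH (0.97). A further 19 were lower, led by SLC7A5 (-1.74), PYCR1 (-1.57), SLC7A1 (-1.42) and CBS (-1.19). Over all genes 21.9% rose and 24.2% fell, so the higher share of this list was near that of all genes. The median of the list was -0.11, and 0.12 with library totals. The D2000 libraries also held lower erythroid markers than untreated VPR-D9 (summed 690 to 694 against 1416 to 1428 CPM), higher T cell markers (1.09 to 1.67 against 0.485 to 0.537 CPM), lower fibroblast or epithelial markers (60.7 to 61.3 against 67.9 to 72.5 CPM) and more genes at 1 CPM or above (13980 and 13989 against 13166 to 13455 in the other groups); their part in these results was not tested. In RNA from a whole culture, fewer cells of 1 state and less RNA per cell cannot be told apart.

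Few members were called in D6 by edgeR, at a SAMD9 level near that of D2000 (the difference D6 against D2000 was -0.02 ± 0.05 on the log2 scale, edgeR adjusted p = 0.821). Of the 35 genes 1 rose and 3 fell against untreated VPR-D9 (median -0.04), and over all genes 3.19% rose and 3.41% fell. The count depends on the fit, over all genes too. DESeq2 called 4 members higher and 4 lower, and 769 and 845 of all 15703 genes it tested. With only the compared groups edgeR called 5 higher and 5 lower (1166 and 1161 of 18453 genes). With no filter edgeR called 0 higher and 2 lower (720 and 701 of 41285 genes). FARSA went to 215 and 208 CPM (-0.18 ± 0.05, edgeR adjusted p = 0.0153), KARS1 to 242 and 250.1 CPM (-0.16 ± 0.04, edgeR adjusted p = 0.0102) and IARS1 to 402 and 415 CPM (-0.12 ± 0.04, edgeR adjusted p = 0.0306), from the untreated levels given above. RARS1 rose from 193 and 204 CPM to 215 and 219 CPM (0.13 ± 0.04, edgeR adjusted p = 0.0478). In D2000, which was compared with the same untreated libraries, FARSA, KARS1 and IARS1 stood at -1.17, -1.01 and -1.07 and RARS1 at -0.49. WARS1 lay at 187 and 193 CPM and was not called (-0.03 ± 0.04, edgeR adjusted p = 0.837). None of the 4 calls held in every fit that left out 1 library: FARSA was lost without either untreated library or replicate 2 of D6 (highest adjusted p 0.17), KARS1 without replicate 2 of the untreated cells or replicate 1 of D6 (highest 0.165), and IARS1 and RARS1 without any 1 of the 4 (highest 0.311 and 0.551). Library totals turned the split to 4 higher and 1 lower, with 878 higher and 394 lower over all genes against 707 and 754.

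Set directly against D2000, D6 was higher in 27 of the 35 genes and lower in 0 (median 0.38), with 21.7% of all genes higher and 18.8% lower. The D2000 libraries also enter the comparison of D2000 with untreated cells. MARS2 (1.30), FARSB (1.11), FARSA (1.00), IARS1 (0.95), EARS2 (0.87), KARS1 (0.85), NARS2 (0.71) and WARS1 (0.69) led. With library totals 21 were higher and 2 lower, and of the called genes QARS1 (-0.07) and AARS1 (-0.00658) turned sign; over all genes 2945 were then higher and 6481 lower against 4797 and 4152. QARS1 was lost without replicate 2 of D2000 or of D6 (highest adjusted p 0.15).

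**Figure D4:**
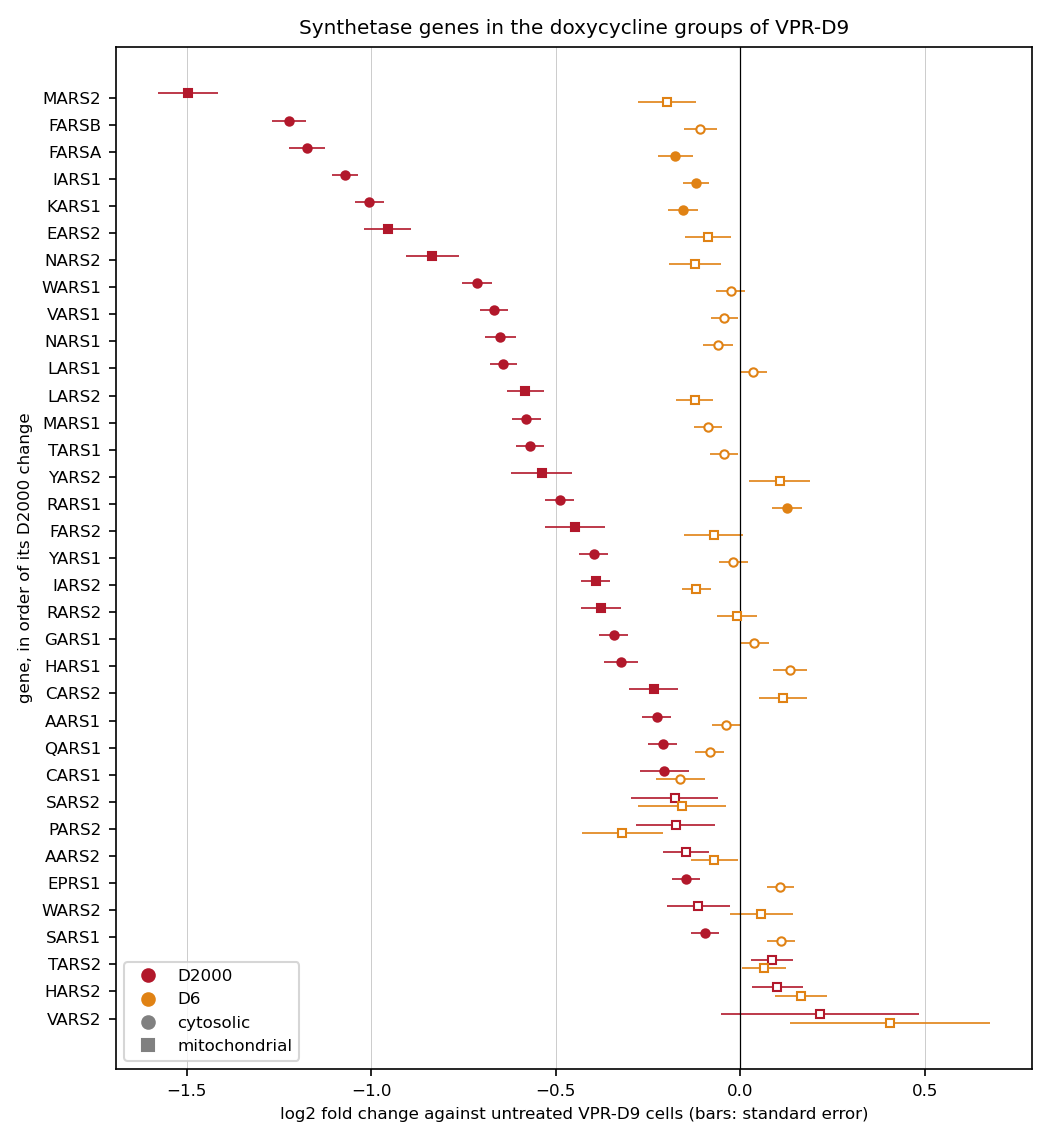
Points are log2 fold changes of the 35 genes against untreated VPR-D9 cells with standard errors, red for D2000 and orange for D6; filled points have an edgeR adjusted p under 0.05, and squares are mitochondrial genes. D2000 runs from -1.50 (MARS2) to 0.22 (VARS2), and with library totals in place of TMM 5 of its called genes lie above 0; D6 holds 4 filled points.

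The difference between the doxycycline effects in VPR-D9 and KRAB-D9 was tested directly. The change in D2000 was lower than that with doxycycline in KRAB-D9 for 23 of the 35 genes and higher for 1, HARS2 (0.27 ± 0.10), with a median of -0.46, against 19.1% and 12.2% of all genes. IARS1 differed most (-1.13 ± 0.05, edgeR adjusted p = 1.76e-20), followed by FARSB (-0.94), MARS1 (-0.93), CARS1 (-0.89), WARS1 (-0.86), EARS2 (-0.85), FARSA (-0.81) and MARS2 (-0.79). Of the 10 genes that rose in KRAB-D9, 9 fell in D2000, and of the 12 that fell there, 12 fell in D2000. The whole family fell at a like rate in D2000 (28 of all 35), and no overlap over all genes is given. These comparisons share no library. With library totals 21 were lower and 3 higher, and 4208 higher and 2450 lower over all genes against 2694 and 4236. HARS2 was lost when replicate 2 of untreated VPR-D9, replicate 1 of D2000, or replicate 1 of KRAB-D9 untreated or with doxycycline was left out (highest adjusted p 0.266), and FARS2 (-0.33) without replicate 1 of untreated VPR-D9, replicate 2 of D2000, or the same KRAB-D9 libraries (highest 0.158). RARS1, not called by TMM, was higher with library totals (0.18, edgeR adjusted p = 0.00845). The protocol gives 1 dose of doxycycline, the times may differ, and line, fusion and time cannot be told apart.

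**Figure D5:**
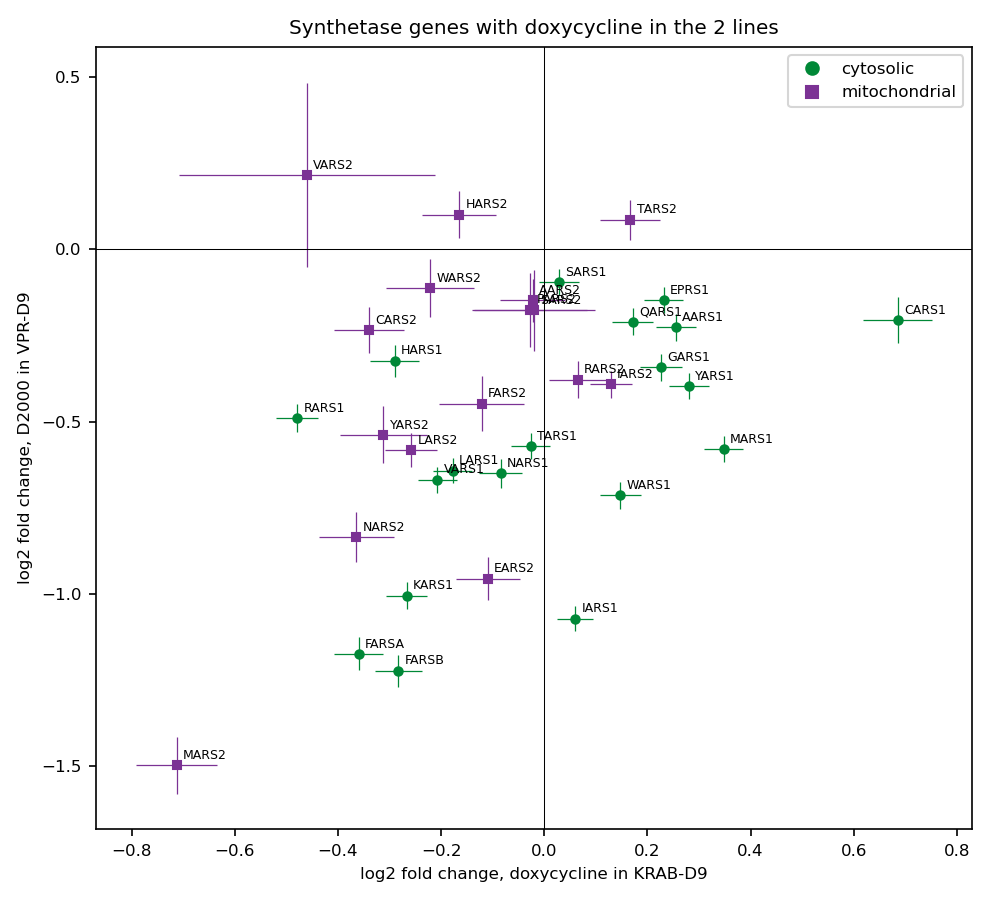
Each point is a gene, with its log2 fold change with doxycycline in KRAB-D9 on the horizontal and in D2000 of VPR-D9 on the vertical axis, and standard errors as bars. CARS1, MARS1, YARS1 and EPRS1 lie to the right and below 0, and MARS2, FARSA, FARSB and KARS1 to the left and below 0; with library totals CARS1 (0.02) and EPRS1 (0.08) lie above 0 on the vertical axis.

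The untreated lines differed from each other before any agent was given, in SAMD9 as above and in summed erythroid markers (2085 to 2103 CPM in parental, 1416 to 1428 CPM in VPR-D9 and 3196 to 3231 CPM in KRAB-D9 cells); their part in the differences below was not tested. In VPR-D9 4 of the 35 genes were higher than in parental cells and 20 lower (median -0.16), against 18.5% and 18.2% of all genes. VARS2 (-1.08, at 1.34 and 1.26 against 2.79 and 2.73 CPM), EPRS1 (-0.49), CARS1 (-0.43), YARS1 (-0.41), GARS1 (-0.39), MARS2 (-0.33), EARS2 (-0.32) and MARS1 (-0.31) led the lower genes. QARS1 (0.41 ± 0.04), PARS2 (0.27), RARS2 (0.14) and VARS1 (0.13) were higher. QARS1 stood at 223 and 223 against 168 and 168 CPM. WARS1 was not called (-0.05 ± 0.04, edgeR adjusted p = 0.363). PARS2 was lost without either parental library or replicate 1 of VPR-D9 (highest adjusted p 0.363), RARS2 without any 1 of the 4 (highest 0.217) and VARS1 without replicate 2 of parental or replicate 1 of VPR-D9 (highest 0.104); of the smaller falls FARSB, NARS1 and NARS2 were lost without replicate 1 of VPR-D9 and at least 1 parental library (highest 0.234). Library totals gave 5 higher and 17 lower, and 4968 higher and 3282 lower over all genes against 4103 and 4041.

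In untreated KRAB-D9 4 genes were higher than in parental cells and 10 lower (median -0.01), against 14.2% and 14.3% of all genes. WARS1 differed most: it stood at 135 and 130.0 against 202 and 199 CPM, a log2 fold change of -0.60 ± 0.04 (edgeR adjusted p = 3.65e-15). GARS1 went the same way, at 178 and 181 against 262 and 267 CPM (-0.56 ± 0.04), followed by IARS2 (-0.40), CARS1 (-0.39), YARS1 (-0.38), EARS2 (-0.27), MARS1 (-0.20) and AARS1 (-0.20). QARS1 (0.33 ± 0.04), PARS2 (0.31), WARS2 (0.28) and CARS2 (0.18) were higher. With IFN, WARS1 in KRAB-D9 cells (172 and 174 CPM) still lay below both untreated parental libraries. Without replicate 1 of untreated KRAB-D9 the count fell from 14 to 9 genes; PARS2 was lost without any 1 of the 4 libraries (highest adjusted p 0.215), CARS2 without either parental library or replicate 1 of KRAB-D9 (highest 0.377), and WARS2 without replicate 2 of parental or replicate 1 of KRAB-D9 (highest 0.0981). NARS2 and RARS1 were lost without replicate 1 of either line, NARS2 also without replicate 2 of parental (highest 0.312 and 0.0581).

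The amino acid response list held more lower than higher genes in both derived lines. In VPR-D9 7 of 38 were higher and 24 lower (18.5% and 18.2% of all genes), and ATF4 stood at 169 and 171 against 253 and 255 CPM (-0.58 ± 0.04, edgeR adjusted p = 3.39e-15). In KRAB-D9 6 were higher and 20 lower (14.2% and 14.3% of all genes), with ATF4 at 229 and 231 CPM (-0.15 ± 0.04, edgeR adjusted p = 0.00423). The comparisons share the parental libraries.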

How the data were processed

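The authors deposited unnormalized counts of reads, as whole numbers, for 41285 genes in 18 libraries, together with each gene's length in bases. Per the submitters' processing notes, cutadapt 2.10, STAR 2.7.8a, FastQC 0.11.9 and featureCounts 2.0.2 were used with GRCh38.p13; the annotation release, strand setting and handling of multi-mapping reads are not given in sources used here. The deposited lengths served for RPKM. Groups came from the labels. Genes were filtered with filterByExpr by group (minimum count 10), scaled by TMM and fitted in edgeR 4.0.16 (R 4.3.3) as 1 quasi-likelihood model of 9 group means, with 9 residual degrees of freedom. Calls were made at an adjusted p (Benjamini-Hochberg, over the 22143 genes tested) under 0.05, in 14 comparisons. In each library 13166 to 13989 of these genes reached 1 CPM, and a change is harder to detect in genes with few reads. The shares over all genes therefore need not hold at the members' levels, for which no share is given. Standard errors were obtained by dividing the size of the log2 fold change by the root of F; dispersion is shared over groups, so errors for KRAB-D9 with IFN may be too small. The fit was tested on simulated data with the same dispersion in all genes and groups. These data held neither the wider spread of KRAB-D9 with IFN nor the shift in scaling of D2000, so the test does not cover them. Alternatives were DESeq2 1.42.0, its size factors, library totals, no filter, only the compared groups, a replicate block, each library left out and, for levels, merged exon lengths (chosen after the data were seen). Same-numbered libraries of different groups did not deviate together (36 group pairs over 9204 genes, r from -0.18 to 0.27, median -0.007), so numbers were not taken as pairs. Exon overlaps came from GENCODE release 29. Any member could be named; the called genes with the largest changes, up to 8 a direction, were named in each comparison, WARS1 throughout, and up to 4 a direction from related lists with ATF4. The members and lists were chosen with earlier results of these data known. No columns were left out. The sums of 1 marker list are not reported here.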

Additional observations from a re-analysis of the deposited data

Results flagged for a closer look

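The doxycycline effect differed between the lines, by edgeR's test of the difference (D2000 in VPR-D9 minus doxycycline in KRAB-D9, on the log2 scale, adjusted p under 0.05), for 24 synthetase genes. Of these 23 were lower and 1 higher, and over all genes 19.1% were lower and 12.2% higher. In the multisynthetase complex the difference was -1.13 for IARS1, -0.93 for MARS1, -0.74 for KARS1, -0.46 for LARS1, -0.38 for QARS1 and -0.38 for EPRS1. Among the other cytosolic genes it was -0.94 for FARSB, -0.89 for CARS1, -0.86 for WARS1, -0.81 for FARSA, -0.68 for YARS1, -0.57 for GARS1, -0.57 for NARS1, -0.54 for TARS1, -0.48 for AARS1 and -0.46 for VARS1. Among the mitochondrial genes it was -0.85 for EARS2, -0.79 for MARS2, -0.52 for IARS2, -0.47 for NARS2, -0.44 for RARS2, -0.33 for FARS2 and -0.32 for LARS2, and 0.27 for HARS2, the gene that differed in the other direction. The calls of FARS2 and HARS2 were each lost in fits that left out 1 library, as given above.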

How the results depend on the processing

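Counts of called members were compared under 152 alternatives, of which 132 stayed within 1.5 times the reported count. Only totals were compared, without direction. Counted as stable were thus D6 with library totals (4 higher and 1 lower, reported as 1 and 3) and D2000 with library totals (4 higher and 21 lower, reported as 0 and 28). For IFN in KRAB-D9 (2 members) the count was 1 with no filter, 4 with DESeq2 and 1 with only the compared groups, and 1 to 4 with 1 library left out. For D6 (4 members) it was 2, 8 and 10, and 0 to 1 with 1 library left out. With 1 library left out the count was 1 to 2 for IFN in parental cells, 1 to 3 for IFN in KRAB-D9 with doxycycline, 9 to 14 for untreated KRAB-D9 against parental cells, and 0 to 2 for the difference in IFN effect. A lone library left in a group is assumed to vary like the other groups. Among members called with TMM or with library totals, 8 values changed sign with library totals: in D2000 EPRS1 (0.0830), QARS1 (0.0197), AARS1 (0.00375), CARS1 (0.0245) and SARS1 (0.14), in D6 against D2000 QARS1 (-0.0672) and AARS1 (-0.00658), and in the difference between the doxycycline effects RARS1 (0.18). In D2000 4 members called under neither also changed sign, and 6 in each of the other 2 comparisons named. Library totals shifted the median of all genes by 0.23 in D2000; the cause of the difference in scaling was not tested. With a replicate block the count was 29 in D2000 and 3 in D6, and equal to the reported count in the other comparisons; replicate numbers were not found to pair the libraries. Of the called members, 21 of 28 in D2000, 18 of 22 with doxycycline in KRAB-D9 and 0 of 4 in D6 were called under every alternative. VARS2, with as few as 72 reads, was measured least precisely.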
